A study of Homo sapiens with 18 samples.

Results

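The S100 genes encode small calcium-binding proteins, and 6 of them (S100A2, S100A6, S100A10, S100A11, S100A13 and S100A16) stood among the 1242 genes of a table of transcripts that differed after knockdown of FTO in kidney cancer cells. They were selected on measured values, because the authors' deposited table lists only genes that the authors had called between shFTO#5 and shControl cells, and the members are all its genes whose name starts with S100. The cells were UMRC2, an established line from a clear cell renal carcinoma that has no functional VHL. FTO is an enzyme that removes the methyl mark N6-methyladenosine (m6A) from RNA. All cells received a short hairpin RNA: shControl cells a control hairpin, and shFTO#2 and shFTO#5 cells 1 of 2 hairpins directed at FTO. RNA-seq covered 6 of the 18 samples, with 2 libraries in each of these groups, and the 12 m6A input and immunoprecipitation samples were not analysed here. Levels are given as FPKM, which divides the reads of a gene by its length and by the total of the library.

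S100 proteins work mostly as dimers. Calcium binding at their EF-hand loops opens a surface that grips partner proteins such as annexins, cytoskeletal proteins and chaperones, so that a calcium signal changes membrane repair, secretion or cell movement. Several of them are secreted, and the levels of many differ between tumours and the tissue they arose from. Most of the human genes lie in a single cluster on chromosome 1, and the proteins are expressed in cell type-specific combinations.

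All 6 members lie on the minus strand of chromosome 1 (GENCODE 29, GRCh38 coordinates). S100A10 at chr1:151982915-151994390 and S100A11 at chr1:152032506-152047907 form a pair that spans 65.0 kb. After a gap of 1487 kb follow S100A6 at chr1:153534599-153536244, S100A2 at chr1:153561108-153567890, S100A16 at chr1:153606886-153613145 and S100A13 at chr1:153618787-153631360, which together span 96.8 kb. The annotation holds 21 protein-coding S100 genes, 17 of them on chromosome 1. The span from the first to the last of those 17 holds 64 protein-coding genes, of which 6 are listed, and all 6 are S100 genes. The remaining S100 genes have no row in the table and were not analysed here.

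The transcripts are short. The gene lengths used for FPKM ran from 594 bases (S100A11) to 2184 bases (S100A13), all under the median of 3610.5 bases over the listed genes. Each length equals that of an annotated transcript. S100A2 (998 bases) has 373 bases of 5' UTR, 294 coding bases and 331 bases of 3' UTR, and S100A10 (1202 bases) has 660, 294 and 248 bases in these parts. S100A6 (673 bases) has 303, 273 and 97 bases, S100A11 has 120, 318 and 156 bases, and S100A16 (1146 bases) has 186, 312 and 648 bases. The transcript of 2184 bases that matches S100A13 carries no annotated coding sequence, and the coding transcripts of that gene have 514 to 686 bases. GGACT, the letters most often found at m6A sites, stood 2 times in the matched transcripts of S100A2 and S100A13, once in those of S100A10 and S100A16 and not in those of S100A6 and S100A11. Of 1005 listed genes whose length also matched a transcript, 92.9% held these letters at least once, at a median of 0.951 per kb. A match of letters is no measured methylation.

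Promoters are shown for S100A2, which changed most with shFTO#5, and S100A6, the most abundant member. The RefSeq promoter table (GRCh38.p14, 250 bases before to 50 after each start) held 10 promoters for the 6 members. Both stretches are on the minus strand inside the annotated genes and are written 5' to 3'. The first is chr1:153565795-153566094 of S100A2, with an AP-1 motif in capitals 52 bases before the start, and the second is chr1:153535942-153536241 of S100A6, with GC boxes in capitals, which begin 90, 79 and 75 bases before the start and of which the last 2 overlap.

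S100A2 promoter: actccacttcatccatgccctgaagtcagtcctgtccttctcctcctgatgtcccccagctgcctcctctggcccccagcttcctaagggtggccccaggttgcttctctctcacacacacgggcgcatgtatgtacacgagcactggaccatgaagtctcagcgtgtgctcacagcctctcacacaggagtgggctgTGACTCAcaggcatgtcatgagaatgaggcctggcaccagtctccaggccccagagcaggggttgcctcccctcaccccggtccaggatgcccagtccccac

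S100A6 promoter: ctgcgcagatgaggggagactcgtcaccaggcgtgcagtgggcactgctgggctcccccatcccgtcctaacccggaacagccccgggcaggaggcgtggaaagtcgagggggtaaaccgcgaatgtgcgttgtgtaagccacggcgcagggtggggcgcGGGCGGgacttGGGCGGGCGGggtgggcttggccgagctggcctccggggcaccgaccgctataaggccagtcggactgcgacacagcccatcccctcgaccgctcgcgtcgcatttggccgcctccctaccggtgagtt

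The AP-1 letters TGACTCA, searched like the other motifs on both strands, occurred in 1 of the 10 member promoters and in 4.95% of all 35116 promoters of the table. The GC box GGGCGG occurred in 5 of the 10, at S100A6, S100A10, S100A11, S100A13 and S100A16, and in 45.0% of all promoters. TATAAA occurred in 1 of the 10, a promoter of S100A13, and in 11.5% of all. S100A2 has another promoter in the RefSeq set, at chr1:153563838-153564137, which held none of these motifs. The S100A6 promoter was 69.3% G and C and the S100A2 promoter shown 61.0%, against a median of 58.7% over the table.

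Library totals ran from 14548533 to 18184675 reads, and each member rested on 706 to 8022 reads per library. FTO itself stood at 1.99 and 2.37 FPKM in shControl, at 0.882 and 0.720 with shFTO#2 and at 0.555 and 0.526 with shFTO#5, which left 36.7% and 24.8% of the control mean. The shFTO#2 values stand on other lines of the table than their genes and were tied back through whole read counts for 561 genes. To find the totals of the shFTO#2 libraries, the entry with the largest fall in the authors' fold changes was taken as FTO. The FTO level with shFTO#2 thus rests on that choice and is no separate measure of the knockdown. Of the 6 members, 4 had a single entry that gave whole reads in both libraries; S100A13 and S100A16 had 2 each, of which 1 also matched the authors' fold change. Of 9 renal tubule and clear cell carcinoma markers, 6 had a row (PAX2, PAX8, LRP2, CA9, KRT8 and KRT18, of which 4 were higher and 2 lower with shFTO#5). The authors called 13% of tested genes with shFTO#5 in either direction. A row means only that a gene was called, so nothing about the identity of the cells is read from this count. None of the leukocyte, endothelial, fibroblast and keratinocyte markers had a row, which says nothing of their level, since the table holds called genes only. The labels do not say whether the 2 libraries of a group were separate cultures; the errors and p-values therefore cover the spread between libraries only, which may be technical. In bulk RNA, fewer cells that express a gene and less RNA per cell cannot be told apart.

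All 6 members were higher with shFTO#5 and all 6 with shFTO#2 than in shControl, except that quantile normalization put S100A6 with shFTO#5 at a log2 change of -0.000313. Between shControl and each hairpin no member's libraries overlapped. The authors called 8.18% of 9551 tested genes higher and 4.83% lower with shFTO#5, and 4.17% of 10038 tested genes higher with shFTO#2. The numbers of tested genes were inferred here from the authors' raw and adjusted p-values. Both comparisons use the same shControl libraries, and the first one chose the members. The 766 shFTO#2 entries are in turn the authors' calls with that hairpin, 419 higher and 347 lower. Each was assigned to a gene only where the sign of the authors' fold change was matched. A gene thus has shFTO#2 values only if it was called with that hairpin, here and in the gene lists below. Nothing is read from these counts or from the shared direction of the hairpins. Of the genes listed, 62.9% were higher with shFTO#5 without overlap between the groups, which is all 781 that were higher. With shFTO#2 it was 62.9% of the 561 genes with values, all 353 that were higher. The separation of the members is thus what every higher gene of the table showed. The members' log2 changes (of FPKM + 1, here and below) ran from 0.14 to 0.49 with shFTO#5 and from 0.23 to 0.46 with shFTO#2. Their median of 0.22 with shFTO#5 stood beside 0.15 over all listed genes and 0.22 over those that were higher. With shFTO#2 the median of 0.28 stood beside 0.17 over all 561 genes and 0.27 over those that were higher.

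**Figure D1:**
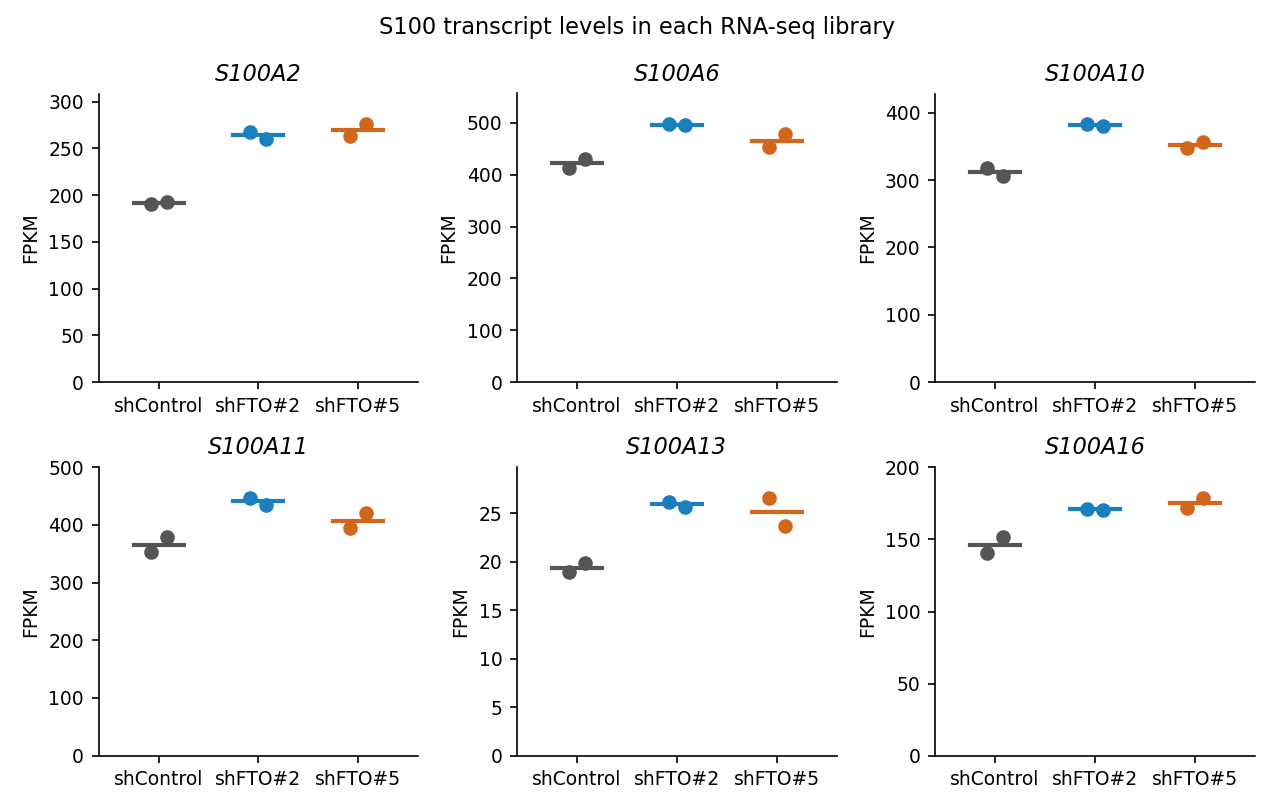
FPKM (y axes, from 0, one scale per gene) of the 6 S100 genes in each RNA-seq library (points, 2 per group) with the group mean (bars). Every knockdown library lies above both shControl libraries of its gene. Both shFTO#2 libraries lie above those of shFTO#5 for S100A6, S100A10 and S100A11 and below them for S100A16. How many of all genes have such separate hairpins was not counted, so nothing is read from this. After quantile normalization S100A6 with shFTO#5 is level with shControl (log2 change -0.000313).

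S100A2 had the largest fold change of the family with both hairpins in the values as deposited; after quantile normalization S100A13 (log2 change 0.40) stood above S100A2 (0.39) with shFTO#2. It encodes a mainly nuclear S100 protein of epithelial cells that binds p53. Its level was 190 and 193 FPKM in shControl, 268 and 261 with shFTO#2 and 263 and 276 with shFTO#5. The shControl libraries were low and close together, and the libraries of the hairpins overlapped each other. The means were 192 ± 2.15 (SD, n = 2) in shControl, 264 ± 5.22 with shFTO#2 and 269 ± 8.85 with shFTO#5, folds of 1.38 and 1.41. The log2 changes were 0.46 ± 0.03 (SE) and 0.49 ± 0.03, and among the 781 listed genes higher with shFTO#5 its change ranked 58.

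S100A13 showed the second largest fold at the lowest level of the family. Its protein takes part in the release of FGF1 and interleukin 1 alpha, which leave cells without a signal peptide. It stood at 18.9 and 19.9 FPKM in shControl, at 26.2 and 25.7 with shFTO#2 and at 26.6 and 23.7 with shFTO#5. The knockdown libraries were all higher than shControl, and those of shFTO#5 spread around those of shFTO#2. The means were 19.4 ± 0.679 in shControl, 25.9 ± 0.344 with shFTO#2 and 25.1 ± 2.05 with shFTO#5 (SD, n = 2), folds of 1.33 and 1.30 and log2 changes of 0.40 ± 0.06 and 0.36 ± 0.06 (SE). S100A13 overlaps S100A1 on the opposite strand and the transcript AL162258.1 on its own. Whether the authors counted by strand is not stated in the sources used here, so reads of these genes may be mixed.

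S100A16, a widely expressed member, was higher by about the same fold with both hairpins. Its level was 141 and 151 FPKM in shControl, 171 and 170 with shFTO#2 and 172 and 179 with shFTO#5. The groups were separate, although the hairpins lay within 1 FPKM of each other at their nearest libraries. The means were 146 ± 7.47, 171 ± 0.677 and 175 ± 4.76 (SD, n = 2), folds of 1.17 with shFTO#2 and 1.20 with shFTO#5, and the log2 changes 0.23 ± 0.04 and 0.26 ± 0.04 (SE).

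The remaining members, S100A6, S100A10 and S100A11, were the most abundant and had the smallest changes with shFTO#5. S100A10, also called p11, has lost calcium binding and is held in the active shape; with annexin A2 it forms a tetramer that carries plasminogen at the cell surface. It stood at 318 and 307 FPKM in shControl, at 382 and 380 with shFTO#2 and at 348 and 356 with shFTO#5. The 3 groups did not overlap, with shFTO#5 in the middle. The means were 313 ± 8.42, 381 ± 2.09 and 352 ± 5.76 (SD, n = 2), folds of 1.22 with shFTO#2 and 1.13 with shFTO#5, and the log2 changes 0.29 ± 0.03 and 0.17 ± 0.03 (SE).

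S100A6, or calcyclin, is abundant in dividing cells and binds CACYBP, a protein of a ubiquitin ligase complex. Its level was 414 and 430 FPKM in shControl, 497 and 495 with shFTO#2 and 454 and 478 with shFTO#5. Again shFTO#5 lay between the other groups, without overlap. The means were 422 ± 11.9, 496 ± 1.19 and 466 ± 17.3 (SD, n = 2), folds of 1.18 with shFTO#2 and 1.10 with shFTO#5, and the log2 changes 0.23 ± 0.03 and 0.14 ± 0.03 (SE). An antisense gene, BX470102.1, overlaps S100A6.

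S100A11, or calgizzarin, binds annexin A1 and takes part in plasma membrane repair. It stood at 353 and 379 FPKM in shControl, at 447 and 435 with shFTO#2 and at 394 and 421 with shFTO#5. The gap of 15.2 FPKM between the nearest shControl and shFTO#5 libraries was smaller than the range of 26.2 FPKM within shControl. The means were 366 ± 18.5, 441 ± 8.46 and 407 ± 18.8 (SD, n = 2), folds of 1.20 with shFTO#2 and 1.11 with shFTO#5, and the log2 changes 0.27 ± 0.04 and 0.16 ± 0.04 (SE). S100A11 overlaps the antisense gene AL450992.1 and has 2 processed pseudogenes on chromosome 7, so part of its reads could have been split.

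The authors' deposited table gave adjusted p-values from 3.04e-19 (S100A2) to 0.0151 (S100A11) with shFTO#5. The authors' deposited table gave values from 1.50e-15 (S100A2) to 0.00295 (S100A16) with shFTO#2. S100A11 was thus the member nearest to the edge of the list, whose largest adjusted p in the authors' deposited table was 0.0499, and genes beyond that edge were not analysed here.

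**Figure D2:**
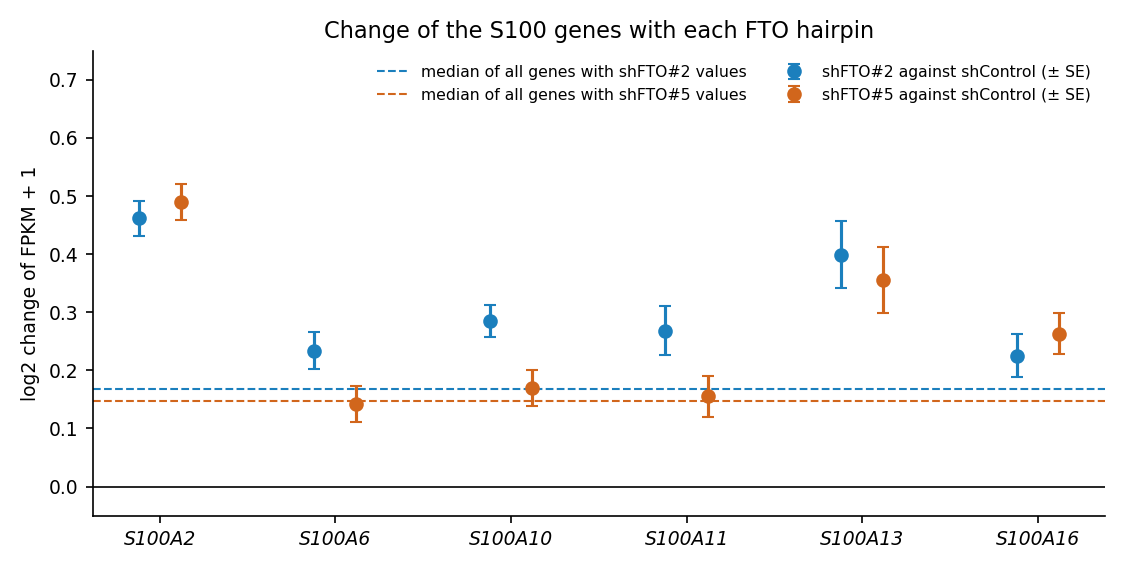
Log2 change of FPKM + 1 against shControl (y axis, ± SE) for each S100 gene with shFTO#2 and shFTO#5; dashed lines give the medians over 561 and 1242 listed genes, 0.17 and 0.15. S100A2 is highest with both hairpins (with shFTO#2 it is 0.39 against 0.40 for S100A13 after quantile normalization), and S100A6, S100A10 and S100A11 are further above 0 with shFTO#2 than with shFTO#5; S100A6 with shFTO#5 goes to -0.000313 after quantile normalization.

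Both hairpins were also set side by side, without shControl. By limma with Benjamini-Hochberg adjustment over the 561 genes with shFTO#2 values, 77 (13.7%) differed between shFTO#2 and shFTO#5, 34 higher and 43 lower with shFTO#2, and 166 had an unadjusted p under 0.05. The shFTO#5 libraries on one side of this comparison are those that chose the members, so the members' differences are a description, no p is given for them and nothing is read from how many passed. On the log2 scale S100A10 was higher with shFTO#2 than with shFTO#5 by 0.12 ± 0.03 (SE; 95% interval 0.05 to 0.18), and it was the 1 member among the 77 genes. It was not among the genes that passed without shFTO#2 replicate 1, without either shFTO#5 library, without the intensity trend or after centring on the library median, with differences from 0.08 to 0.13 over all alternatives.

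For S100A6 and S100A11 the difference had the same direction, at 0.09 ± 0.03 (SE; 95% interval 0.02 to 0.16) and 0.11 ± 0.04 (0.02 to 0.21). For S100A2 it was -0.03 ± 0.03 (-0.10 to 0.04), for S100A16 -0.04 ± 0.04 (-0.12 to 0.05) and for S100A13 0.04 ± 0.06 (-0.09 to 0.18). These last 3 intervals hold 0, which does not show that the hairpins act alike on these genes. Like the differences, all these intervals are a description, since the shFTO#5 libraries chose the members. An interval without 0 is likewise no test of a difference. The median difference was 0.07 over the members and 0.00178 over the 561 genes. FTO was lower with shFTO#5, and whether its level has a part in these differences was not tested.

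On the chromosome, S100A10 and S100A11, which are neighbours, had nearly equal changes with each hairpin: 0.17 and 0.16 with shFTO#5, 0.29 and 0.27 with shFTO#2. This was not particular to neighbours, since the distant S100A6 was also near them, at 0.14 and 0.23. S100A2, S100A16 and S100A13, which lie within the group of 96.8 kb, had the larger changes with shFTO#5, from 0.26 to 0.49. S100A6, at the other end of that group, had the smallest, 0.14. With shFTO#2 this order did not hold in the values as deposited: S100A16 had the smallest change of the 6, 0.23 (0.226), below S100A6 (0.234), S100A11 and S100A10. S100A16 and S100A6 lay closer together than their SEs of 0.04 and 0.03. After quantile normalization S100A6 had the smallest change with shFTO#2, 0.07, and S100A16 (0.138) stood above S100A10 (0.129). The order among these genes with shFTO#2 thus depends on the scaling. Position and level cannot be told apart in 6 genes, since S100A6, S100A10 and S100A11 were also the most abundant.

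**Figure D3:**
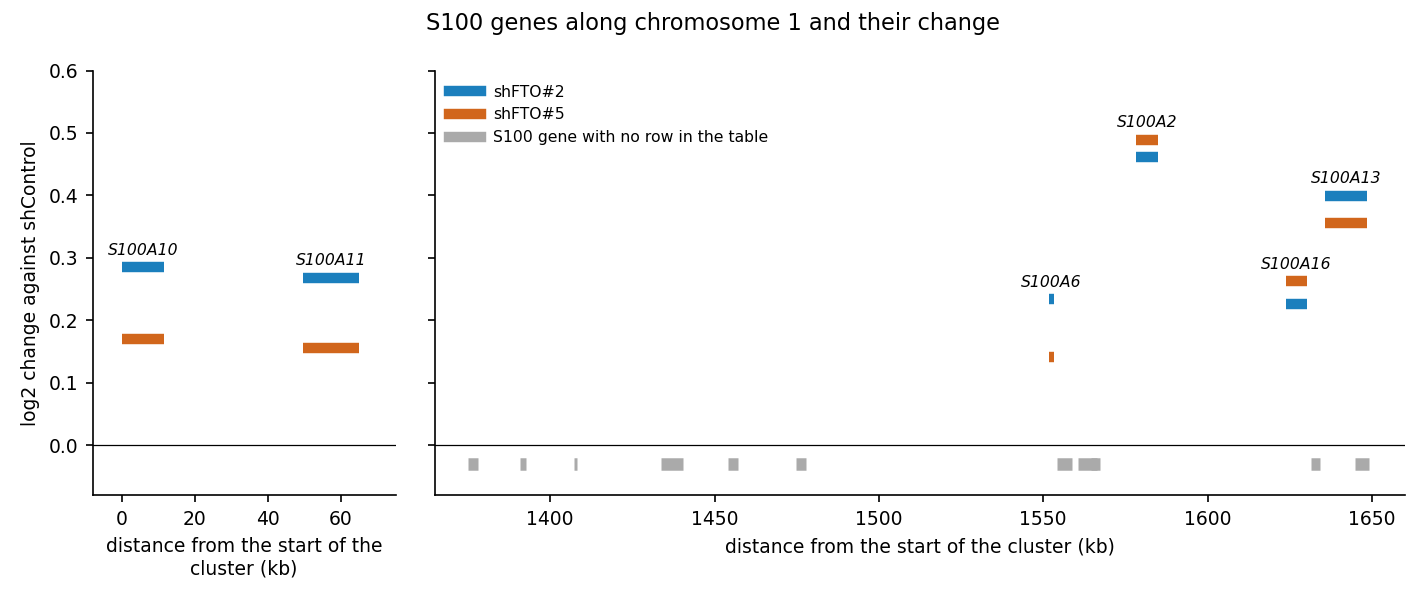
Log2 change against shControl (y axis) of the listed S100 genes against distance in kb from the start of the chromosome 1 cluster (x axis, broken between the panels); bars span each gene and grey bars mark S100 genes with no row. The pair S100A10 and S100A11 lies apart from the other 4 members, and all coloured bars lie above 0; after quantile normalization S100A6 with shFTO#5 is at -0.000313.

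Across the family, the order of levels was the same in the 3 groups, S100A6 above S100A11, S100A10, S100A2, S100A16 and S100A13, and in shControl no neighbours in that order overlapped. Among the 1242 listed genes the control levels of S100A6, S100A11, S100A10, S100A2 and S100A16 ranked 61, 76, 90, 149 and 185, and S100A13 ranked 830. With the longest coding transcript as its length, the shControl mean of S100A13 would be 61.8 FPKM, still the lowest. The summed level of the 6 genes was 1457 ± 32.3 FPKM in shControl, 1779 ± 18.0 with shFTO#2 and 1695 ± 53.4 with shFTO#5 (SD, n = 2), folds of 1.22 and 1.16. S100A2 made up 13.1% of the sum in shControl, 14.9% with shFTO#2 and 15.9% with shFTO#5, while S100A6 made up 29.0%, 27.9% and 27.5%. The 6 genes took 0.126% and 0.129% of the reads in shControl, 0.158% and 0.156% with shFTO#2 and 0.148% and 0.153% with shFTO#5.

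Partners of S100 proteins were also in the table. The share of each gene list that was listed can be set beside the 13% of tested genes (an inferred number) that the authors called with shFTO#5 in either direction. A list may also hold genes that were not tested. The lists were chosen with earlier results of these data known, so nothing is read from their shares. Of 12 annexins, the calcium-dependent membrane binders, 3 (25%) were listed, 2 higher and 1 lower with shFTO#5. ANXA2, the partner of S100A10, stood at 406 and 410 FPKM in shControl, at 473 and 470 with shFTO#2 and at 469 and 471 with shFTO#5, log2 changes of 0.21 ± 0.02 and 0.20 ± 0.03 (SE). Its folds were 1.16 with shFTO#2 and 1.15 with shFTO#5, beside 1.22 and 1.13 for S100A10. ANXA5 had a log2 change of 0.14 and ANXA4 of -0.20 with shFTO#5. Of 20 binding partners and receptors, 5 (25%) were listed, 4 higher and 1 lower with shFTO#5, and 3 had shFTO#2 values. AHNAK, a giant scaffold that binds the S100A10 and annexin A2 complex, had log2 changes of 0.48 with shFTO#5 and 0.41 with shFTO#2. KCNK3, a potassium channel that S100A10 binds, had 0.49 and 0.39, and STIP1, a co-chaperone that binds several S100 proteins, had 0.22 and 0.14, the latter -0.01 after centring on the library median. CACYBP, the S100A6 partner, had 0.17 with shFTO#5, and BSG, a receptor for S100A9, had -0.21.

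S100A10 is known as a plasminogen receptor subunit, and genes of the urokinase and plasminogen system were listed with it. Of 8 such genes 4 (50%) were listed, beside 13% of tested genes, all higher with shFTO#5, and 3 had shFTO#2 values, all higher. The exception was ENO1 with shFTO#5, which went to -0.03 after centring on the library median. After quantile normalization it was level with shControl (1.78e-15). PLAU, the urokinase, stood at 5.01 and 5.49 FPKM in shControl, at 10.6 and 11.2 with shFTO#2 and at 9.57 and 9.87 with shFTO#5, log2 changes of 0.93 and 0.78. PLAUR, its receptor, had log2 changes of 0.80 with shFTO#2 and 0.73 with shFTO#5. SERPINE2, a protease inhibitor, had 0.17 and 0.14. ENO1, a glycolytic enzyme that binds plasminogen, had a log2 change of 0.06 with shFTO#5. The list had a median of 0.43 over its 4 genes with shFTO#5, beside 0.22 over the listed genes that were higher. Since it was chosen with earlier results of these data known, nothing is read from its share or its median.

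Of 50 other EF-hand proteins 6 (12%) were listed, near the 13% of tested genes, all higher with shFTO#5 under each of the 3 scalings, and the 5 with shFTO#2 values were higher with it. CAPN2, the large subunit of a calcium-activated protease, had log2 changes of 0.42 with shFTO#5 and 0.44 with shFTO#2. EFHD2, an actin-binding protein, had 0.30 and 0.24, and MYL12A, a myosin regulatory light chain, had 0.23 and 0.30. PLS1, an actin bundler, had 0.20 and 0.43, EHD1, which acts in endocytic recycling, had 0.18 and 0.29, and ACTN1, an actin crosslinker, had 0.16 with shFTO#5. None of the 7 S100 fused-type genes of the neighbouring epidermal complex was listed.

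Of 10 subunits of AP-1, the factor whose letters stand in the S100A2 promoter shown above, 3 (30%) were listed, 1 higher and 2 lower with shFTO#5. FOSL1 stood at 110 and 119 FPKM in shControl, at 205 and 200 with shFTO#2 and at 232 and 241 with shFTO#5, log2 changes of 0.82 and 1.04. JUND fell from 256 and 269 FPKM to 156 and 182 with shFTO#2 and to 151 and 155 with shFTO#5, log2 changes of -0.63 and -0.78, and FOSL2 had -0.15 with shFTO#5. Whether these subunits act on any S100 gene was not tested.

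**Figure D4:**
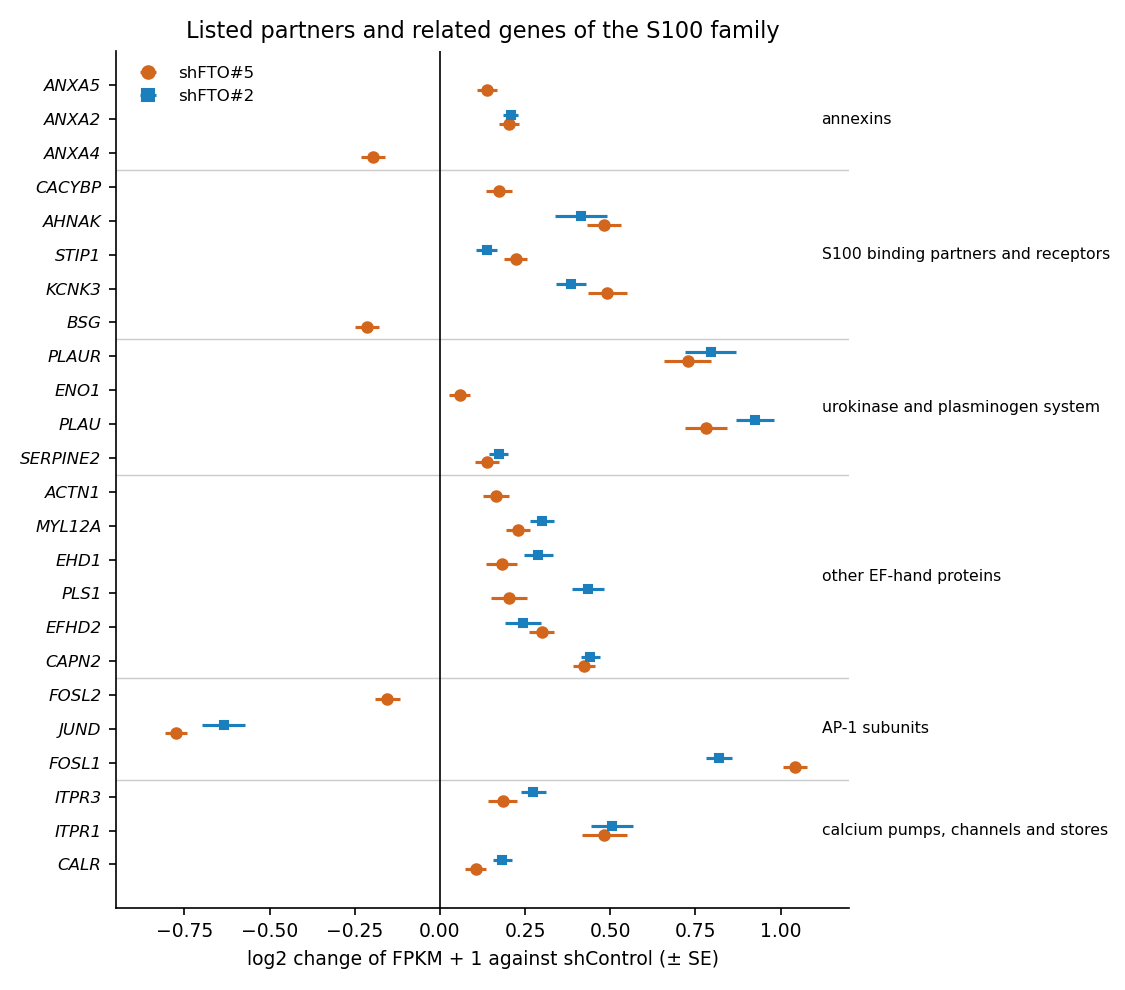
Log2 change of FPKM + 1 against shControl (x axis, ± SE) of the listed annexins, S100 partners, plasminogen system, EF-hand, AP-1 and calcium-store genes (rows) with each hairpin. Most lie to the right of 0; ANXA4, BSG, FOSL2 and JUND lie to the left; another scaling turns the sign of ENO1 and CALR with shFTO#5 and of STIP1 with shFTO#2.

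The listed genes whose profile over the 4 shControl and shFTO#5 libraries was most like that of a member were found by the distance between log2 profiles centred on the shControl mean. They were SNRPD3, EPHA2 and TM4SF18 for S100A2 (distances 0.0208, 0.0264 and 0.0370). For S100A13, whose shFTO#5 libraries were spread, they were IL6R, PRKAG2 and NAV2 (0.0397, 0.0432 and 0.0537), and for S100A16 CDCA3, HSPE1 and TMEM87A (0.0238, 0.0295 and 0.0337). S100A10 was nearest to POMGNT1, MVP and RPL15 (0.00384, 0.0143 and 0.0173). S100A6 was nearest to RPL8, FBL and SF3B2 (0.0146, 0.0177 and 0.0196), and S100A11 to NUDC, ATP5E and PFN1 (0.0238, 0.0242 and 0.0277). No member was among the genes named, since other members were left out of this search.

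The changes moved with the scaling of the libraries, and for S100A6 with shFTO#5 so did the direction. Centring each library on its median, which shifted the median change of all genes by -0.0887 with shFTO#5 and -0.149 with shFTO#2, left the members between 0.05 (S100A6) and 0.40 (S100A2) with shFTO#5 and between 0.08 (S100A16) and 0.31 (S100A2) with shFTO#2. Quantile normalization left S100A2 at 0.42 with shFTO#5, S100A13 at 0.35 and S100A16 at 0.18, but S100A10 at 0.05, S100A11 at 0.04 and S100A6 at -0.000313. The listed genes are called genes, most of them higher, so both scalings assume a balance that the table may not have.

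**Figure D5:**
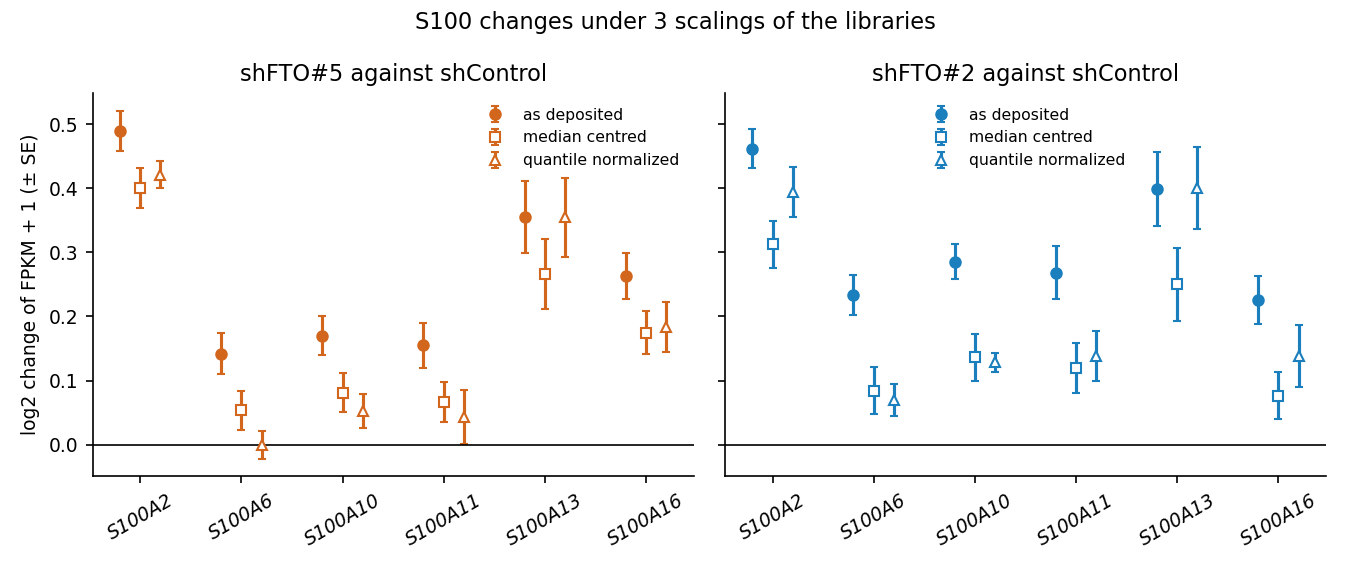
Log2 change of FPKM + 1 against shControl (y axes, ± SE) of each S100 gene with shFTO#5 (left) and shFTO#2 (right) under 3 scalings. S100A2, S100A13 and S100A16 lie above 0 under each, whereas S100A6 with shFTO#5 falls to -0.000313 after quantile normalization.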

How the data were processed

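The authors deposited FPKM values per library and gene lengths, together with log2 fold changes and raw and adjusted p-values of their own, per the file headers; the rows are genes they had called with shFTO#5. The deposited fold changes are control over knockdown and were reversed here. Trim Galore 0.4.2, STAR, RSEM and hg38 are named in the submitters' processing notes; an annotation release and strand setting were not given in the sources used. FPKM times gene length gave whole reads (tolerance 1e-05) and the library totals. For shFTO#2, the entry with the largest deposited fall was taken as FTO, and the total that gave the most entries whole reads was kept. Each shFTO#2 entry was assigned to a gene by whole reads in both libraries, the sign of the authors' fold change and a log2 distance from it under 0.15 or under its own size, in gene order, for 561 of 766 entries; 205 were not used. Limma 3.58.1 (R 4.3.3) with an intensity trend was run on log2(FPKM + 1) for genes that reached 1 FPKM in 2 or more libraries. It gave sizes and SEs against shControl, without tests there, and a comparison of shFTO#2 with shFTO#5, which had been planned as a test; since its shFTO#5 libraries chose the members, it is a description for them. The fit saw called genes only, and shFTO#2 values only of genes also called with shFTO#2, so its spread comes from chosen genes. Counts of replicates differed beyond sampling (chi-square over degrees of freedom 2.56 to 4.57), so they were kept apart. Members and gene lists were chosen with earlier results of these data known, and 1 gene of a list is not reported here. Named genes were the S100 genes, listed genes of each list (up to 6 by size of change), the 3 nearest profiles of each member and FTO. Alternatives were the pseudocount, the scaling, the filter, the trend, the assignment distance, a replicate block and leaving out each library.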

Additional observations from a re-analysis of the deposited data

How the results depend on the processing

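Of 272 recomputed values, 236 kept their direction and call or stayed within the spread between replicates. Another 28 moved by more, 5 lost a call, 2 gained one and 1 change against shControl changed sign. That sign changed for S100A6 with shFTO#5, at -0.000313 after quantile normalization. Signs of small differences between the hairpins also changed, and these are counted among the 236. Without shFTO#5 replicate 2, shFTO#2 minus shFTO#5 was 0.0058 for S100A2 and -0.036 for S100A13. The median log2 change of the members with shFTO#5 (0.22) was 0.13 after centring on the library median and 0.12 after quantile normalization. All 6 members were higher with shFTO#2 under every alternative run, and 6 with shFTO#5 except 5 after quantile normalization. The number of members that passed between the hairpins (1, a description, since the shFTO#5 libraries chose the members) was 0 after centring and 0 without the intensity trend, and ranged from 0 to 1 when each library was left out. With the replicate number as a block it was 3, as S100A6 and S100A11 joined S100A10. The share of all 561 genes that passed, 13.7%, was taken only without these alternatives, so nothing is read from the counts. Deviations of libraries with the same number correlated at 0.0884, 0.218 and 0.117 for the 3 pairs of groups, and the labels tie no batch or culture to a number, so the libraries share only a number. The causes were not tested. Sizes rest on 2 libraries per group and on called genes, and the shallowest value of a member rests on 706 reads.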

Other observations

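Genes that move calcium, the ion S100 proteins sense, were listed as well. Of 20 calcium pumps, channels and store proteins 3 (15%) had a row, near the 13% of tested genes called with shFTO#5, all higher with both hairpins, except that CALR with shFTO#5 went to -0.02 after quantile normalization. ITPR1, a calcium release channel of the endoplasmic reticulum, stood at 2.79 and 2.39 FPKM in shControl, at 4.12 and 4.06 with shFTO#2 and at 3.97 and 4.05 with shFTO#5. All its knockdown libraries were above both shControl libraries, with log2 changes of 0.50 ± 0.06 with shFTO#2 and 0.48 ± 0.07 with shFTO#5 (SE). The related channel ITPR3 had log2 changes of 0.27 and 0.18, and CALR, a calcium-storing chaperone, had 0.18 and 0.10.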
